A study of Drosophila mojavensis with 97 samples.

Results

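The cactus-breeding fly *Drosophila mojavensis* was sampled at a pair of mainland sites, which are compared here over every rearing cactus and temperature: Organ Pipe National Monument, abbreviated OPNM, and the coastal site of Punta Onah, abbreviated PO. All arrays whose titles name OPNM or PO were taken, 24 of OPNM and 24 of PO, which made 48 of the 97 arrays of the series. The other 49 arrays came from Baja California, from Punta Prieta (PP) and San Quintin (SQ). Each sample was a pool of whole wild-type females that had developed on fermenting agria (AG) or organ pipe (OP) cactus and were held as week-old adults at 15, 25, or 35°C before RNA was extracted. Each population thus had 6 combinations of cactus and temperature with 4 arrays each, and the difference for a transcript was the mean of the 6 OPNM group means minus the mean of the 6 PO group means.

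OPNM flies came from stock OPNM08, pooled from a set of isofemale lines, and PO flies from stock PO07, founded with adults caught over banana baits and in agria rots. Each population was therefore 1 laboratory stock, so that the geographic population and the history of its stock cannot be told apart. The replicates of a group were pools of flies from that stock, and the p-values measure only the spread among such pools. In OPNM flies reared on organ pipe at 35°C, 2 arrays carried the label of replicate 3 and none that of replicate 2, and these may be 1 pool hybridized again. They differed by 0.243 (root mean square over transcripts), against 0.245 to 0.326 for the other pairs of that group, and were kept apart. The effect of averaging them is given with the counts.

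*Drosophila mojavensis* feeds and breeds in the rotting tissue of columnar cacti, where larvae and adults meet yeasts, bacteria, and the defensive compounds of the plant. On the mainland its main host is organ pipe cactus, whereas in Baja California it uses agria. Genes known to respond to such a diet in flies include cytochrome P450 enzymes and glutathione S-transferases, which alter and conjugate foreign compounds, digestive peptidases, chitin-binding proteins that line the gut, and receptors that recognize bacterial peptidoglycan. Gene names given below are those of the *D. melanogaster* orthologs that the study's supplementary tables pair with a transcript, and the roles are known from that species. Only 560 of the 14528 transcripts had such a name.

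The values are log2 fluorescence intensities, so that a difference of 1 is a doubling. Array medians were 9.87 to 10.08 in OPNM and 9.81 to 10.07 in PO (mean 9.98 ± 0.0544 in OPNM and 9.98 ± 0.0536 in PO, SD, n = 24 each, two-sided permutation test, p = 0.97). The arrays had been quantile normalized beforehand, which makes their medians alike, so this test cannot show that the populations were comparable. The number of arrays limits the precision. As ovarian markers, the vitelline membrane genes *Vm26Ab* and *Vm26Aa* averaged 12.87 and 11.48 in OPNM and 12.95 and 11.83 in PO. No transcript was paired with a marker of the male germ line or accessory gland, so that absence of males was not checked. Because whole flies were used, fewer cells of a type and less RNA per cell cannot be told apart. The probes had been designed on the sequenced *D. mojavensis* genome, and their match to the OPNM and PO stocks was not tested. A difference in probe match and a difference in RNA level therefore cannot be told apart.

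Which transcripts differed between OPNM and PO in the average over all 6 combinations was asked first. P-values were adjusted jointly over all 483 pairwise comparisons of the design. At an adjusted p under 0.01 in limma, 566 transcripts (3.90% of 14528) differed, of which 188 (1.29%) were higher in OPNM and 378 (2.60%) were higher in PO. Differences were larger among the transcripts higher in PO. Their median was -0.40, or 1.32-fold, and they reached -2.14, whereas the transcripts higher in OPNM had a median of 0.25, or 1.19-fold, and reached 1.39. A difference of at least 1.5-fold was reached by 92 transcripts (0.633%), 16 of them higher in OPNM and 76 higher in PO. The median over all transcripts was 0.03, and 7.81% of them had the same sign in 6 of 6 combinations.

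Calls were spread unevenly over the combinations. Within single combinations, 22 transcripts (0.151%) passed the threshold on agria at 15°C, 21 (0.145%) on agria at 25°C, and 161 (1.11%) on agria at 35°C. On organ pipe, 124 (0.854%) passed at 15°C, 759 (5.22%) at 25°C, and 36 (0.248%) at 35°C. On organ pipe at 25°C, 39 transcripts (0.268%) were higher in OPNM and 720 (4.96%) were higher in PO. Agria at 35°C ran the other way, with 150 (1.03%) higher in OPNM and 11 (0.0757%) higher in PO. The plot of calls by combination shows both. These splits depended on the scaling of the arrays. With each array centered on its median, 179 transcripts were higher in OPNM and 589 in PO on organ pipe at 25°C, and 93 were higher in OPNM and 48 in PO on agria at 35°C. A repeated quantile normalization gave 84 and 669 on organ pipe at 25°C and 102 and 37 on agria at 35°C. With the interquartile range of the array as a covariate they were 243 and 935, and 319 and 60.

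**Figure D1:**
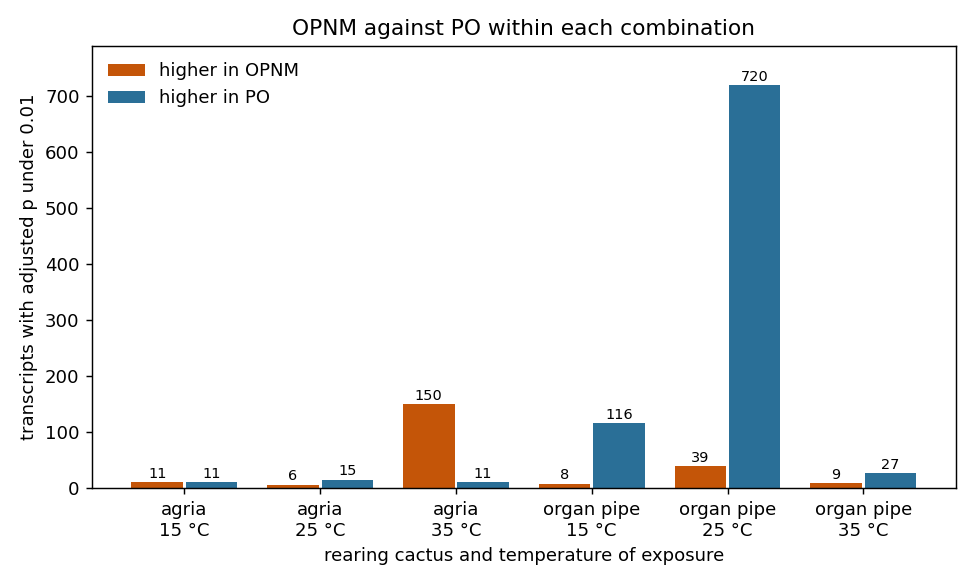
Number of transcripts (y axis) that passed an adjusted p of 0.01 in OPNM against PO within each combination of cactus and temperature (x axis), 4 arrays against 4, with the bars split by direction. The bar for transcripts higher in PO on organ pipe at 25°C (720) and the bar for transcripts higher in OPNM on agria at 35°C (150) stand above the others.

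Both large counts changed when single arrays were left out, which also leaves fewer arrays to test. Without replicate 1 of OPNM on organ pipe at 25°C the 759 calls became 413, without replicate 2 they became 327, without replicate 4 of PO they became 486, and without replicates 1 and 2 of OPNM together they became 87. The 161 calls on agria at 35°C became 107, 57, and 47 without replicates 2, 3, and 4 of OPNM, and 66 and 84 without replicates 3 and 4 of PO. Other arrays raised the counts when left out. The 759 became 1068 and 849 without replicates 3 and 4 of OPNM, and the 161 became 215 without replicate 1 of OPNM. A small count moved as well: the 22 on agria at 15°C became 11 and 50 without replicates 1 and 4 of PO. The count of 566 over all combinations stayed between 497 and 678 when any single array was left out, and averaging both arrays labelled replicate 3 gave 560. It became 244 without replicate 1 and 293 without replicate 2 of every group, and 965 (456 higher in OPNM, 509 higher in PO) with the interquartile range of the array as a covariate. With organ pipe at 25°C left out altogether, 317 transcripts differed over the other 5 combinations, 157 higher in OPNM and 160 higher in PO. Adjusting within each comparison alone left the overall count at 574 and that on organ pipe at 25°C at 839, but lowered the count on agria at 35°C to 14, and those on agria at 15 and 25°C and on organ pipe at 15 and 35°C to 6, 4, 65, and 8.

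The transcripts higher in OPNM were the more even group. Of the 188, 150 (79.8%) were higher in OPNM in 6 of 6 combinations, as were 4.94% of all transcripts, and 1 also passed the test of heterogeneity described below. Their mean level was 10.23 to 10.33 in the 6 OPNM groups and 9.92 to 10.01 in the 6 PO groups. The largest difference lay on agria at 35°C in 62 of the 188 and on organ pipe at 25°C in 52. Of the 378 transcripts higher in PO, 176 (46.6%) were higher in PO in all 6, as were 2.87% of all transcripts. In 295 (78%) the largest difference lay on organ pipe at 25°C, as it did in 34.4% of all transcripts. The heterogeneity test passed for 54 of the 378, and for 1.03% of all transcripts. For these 378, the median difference was -0.23, -0.40, and 0.00 on agria at 15, 25, and 35°C, and -0.56, -0.98, and -0.36 on organ pipe at 15, 25, and 35°C. These transcripts were selected on the same arrays, so the levels are a description.

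**Figure D2:**
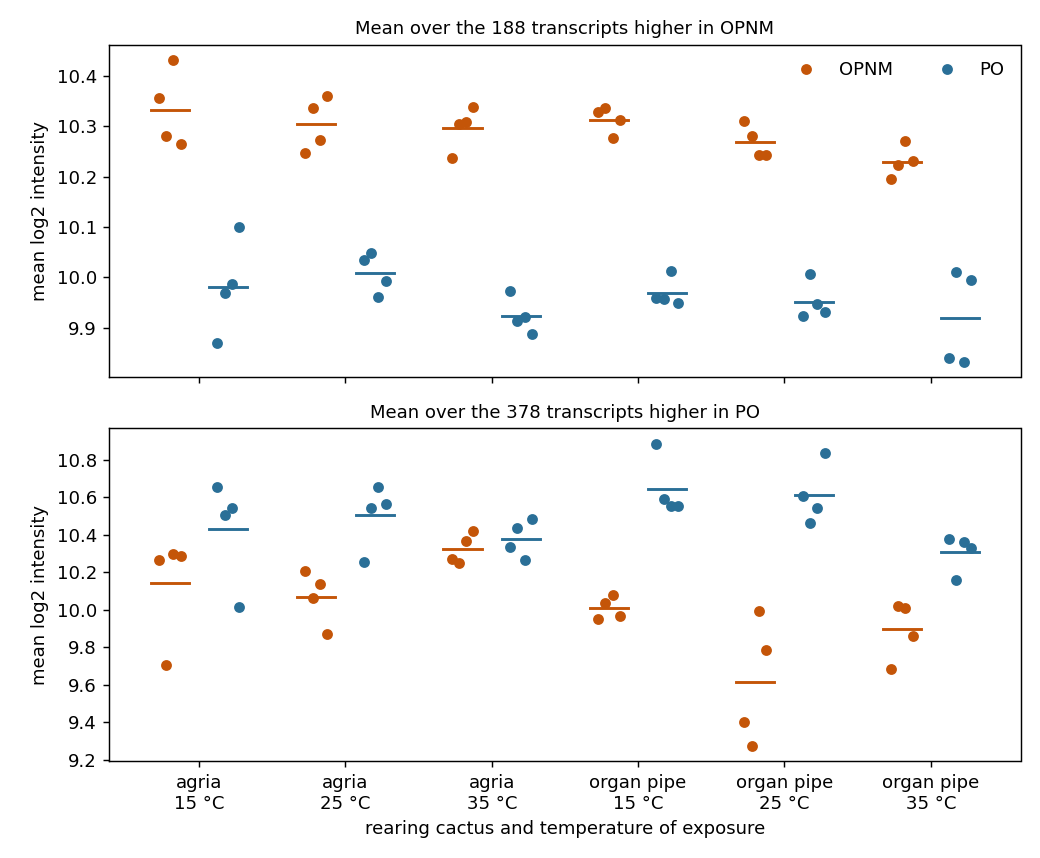
Mean log2 intensity per array (y axis; points, 4 per group; lines are group means) over the 188 transcripts higher in OPNM (top) and the 378 higher in PO (bottom), by combination of cactus and temperature. In the upper panel OPNM lies above PO in every combination (10.23 to 10.33 in OPNM and 9.92 to 10.01 in PO), whereas in the lower panel they lie together on agria at 35°C (10.33 in OPNM and 10.38 in PO) and farthest apart on organ pipe at 25°C (9.61 in OPNM and 10.61 in PO).

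On organ pipe at 25°C the 4 OPNM arrays averaged 9.40, 9.27, 9.99, and 9.78 over these 378 transcripts, and the 4 PO arrays 10.61, 10.46, 10.54, and 10.84. OPNM replicates 1 and 2 were lowest, and the populations did not overlap. The medians of those 2 arrays over all transcripts, 9.89 and 9.87, were also the lowest of the 24 OPNM arrays. On organ pipe at 35°C, replicate 1 of OPNM was almost the same, at 9.89, and replicate 1 of PO was lower, at 9.81. With each array centered on its median, 589 transcripts were higher in PO on organ pipe at 25°C, against 720. With OPNM replicates 1 and 2 on organ pipe at 25°C left out, 407 transcripts differed over the 6 combinations, 142 higher in OPNM and 265 higher in PO.

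Few transcripts separated the populations completely. In 5 transcripts (0.0344%) no OPNM array overlapped any PO array, and these are named because of that, after their values were seen. *CG15370* (GI14299) ranged from 8.99 to 9.89 in OPNM (median 9.45) and from 10.01 to 10.77 in PO (median 10.43). Its mean was 9.47 ± 0.30 in OPNM and 10.42 ± 0.21 in PO (SD, n = 24 each), a difference of -0.95 ± 0.0722 (SE, adjusted p = 4.67e-18) that passed the threshold within 5 of 6 combinations. In Baja California it averaged 10.45 ± 0.21 in PP (n = 25) and 10.47 ± 0.32 in SQ (n = 24), so that OPNM had the lowest mean of the 4 populations.

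The other 2 transcripts without overlap that were higher in PO showed the opposite arrangement, with PO apart from the rest. FBtr0167366, listed under lysozyme terms, ranged from 7.81 to 8.55 in OPNM (median 8.20) and from 8.70 to 10.09 in PO (median 9.35), whereas PP and SQ averaged 8.05 ± 0.26 and 8.15 ± 0.43. Lysozymes cut the peptidoglycan of bacterial cell walls. The difference of -1.11 ± 0.0788 (adjusted p = 1.79e-19) passed within 6 of 6 combinations. FBtr0167365, which no table names, ranged from 8.36 to 9.79 in OPNM (median 8.88) and from 10.23 to 11.62 in PO (median 10.83), a difference of -1.80 ± 0.128 (3.47-fold, adjusted p = 1.58e-19), also within all 6 combinations. It averaged 8.58 ± 0.58 in PP and 8.37 ± 0.50 in SQ.

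Higher in OPNM without overlap were FBtr0168223 and FBtr0166511, neither of them named in the tables. Both were dim, with means of 6.23 and 7.05 over all arrays, against a median of 9.97 over all transcripts. Dim transcripts have the least signal over background. FBtr0168223 ranged from 6.73 to 7.60 in OPNM (median 7.19) and from 4.33 to 6.61 in PO (median 5.98), a difference of 1.33 ± 0.127 (adjusted p = 1.94e-13). FBtr0166511 ranged from 7.13 to 7.76 in OPNM (median 7.47) and from 5.09 to 6.98 in PO (median 6.69), a difference of 0.88 ± 0.112 (adjusted p = 6.18e-09). Both differences kept their sign in 6 of 6 combinations, and neither transcript was uneven over them (heterogeneity, adjusted p = 0.998 and 0.958).

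The largest differences in either direction were all in transcripts without a gene name. FBtr0172076 ranged from 10.60 to 11.95 in OPNM (median 11.11) and from 8.99 to 10.86 in PO (median 9.68), a difference of 1.39 ± 0.138 (adjusted p = 9.16e-13). FBtr0174835 ranged from 6.28 to 8.11 in OPNM (median 7.54) and from 4.89 to 6.86 in PO (median 6.20), a difference of 1.37 ± 0.11 (adjusted p = 6.89e-17) that passed within all 6 combinations. PP and SQ lay above both mainland populations for this transcript, at 8.35 ± 0.28 and 8.25 ± 0.44. It too was dim, with a mean of 7.54 over all arrays.

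FBtr0172428, listed under hydrolases acting on linear amides, had the largest difference of all in the direction of PO. It ranged from 8.81 to 11.93 in OPNM (median 10.46) and from 10.42 to 13.63 in PO (median 12.98), a difference of -2.14 ± 0.169 (4.40-fold, adjusted p = 3.02e-17). The difference was -1.07, -1.11, and -1.75 on agria and -2.70, -3.64, and -2.56 on organ pipe at 15, 25, and 35°C (heterogeneity, adjusted p = 0.00979). In the PO arrays on agria, replicate 4 was far below the rest at both lower temperatures, at 10.76 and 10.42. PP and SQ averaged 10.03 ± 0.44 and 10.27 ± 0.54, so that PO had the highest mean of the 4 populations.

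Among named genes, 50 of 560 (8.93%) differed, 19 (3.39%) higher in OPNM and 31 (5.54%) higher in PO. The study's tables give names mostly for transcripts picked from its own comparisons of these arrays, so that this share is not that of all transcripts. The 8 largest differences in each direction with the same sign in 6 of 6 combinations are described here, and the plot of differences by combination shows them.

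**Figure D3:**
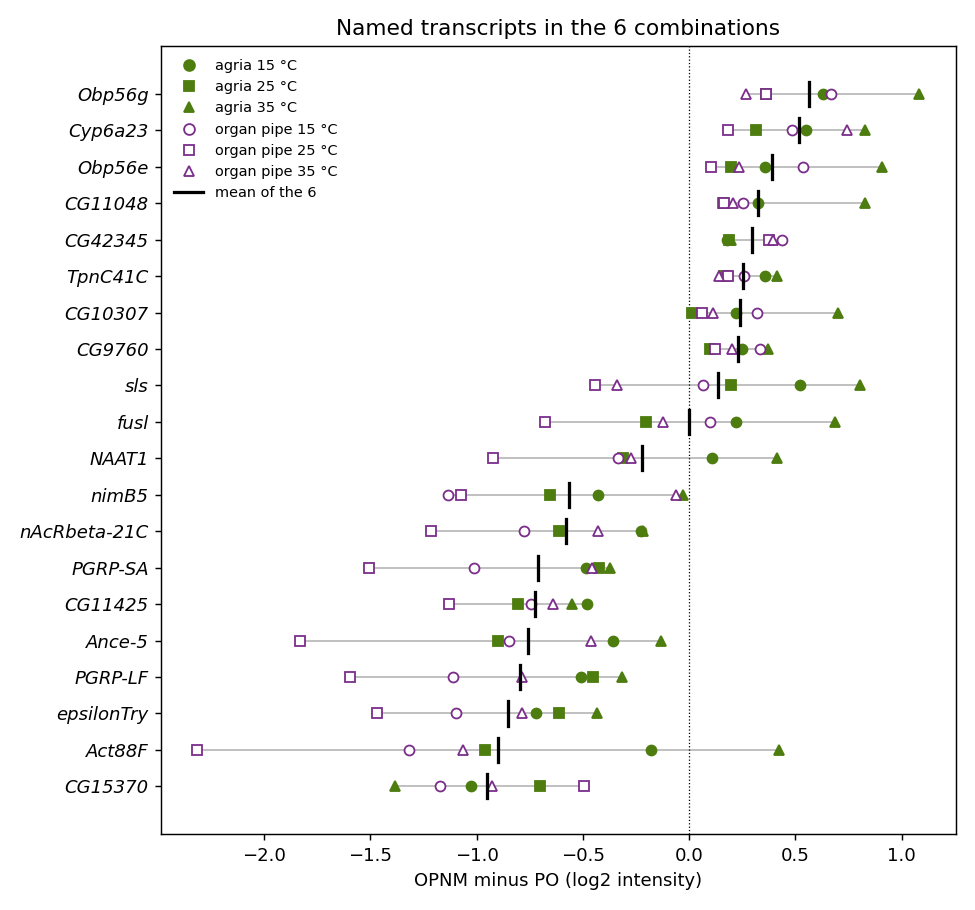
Difference OPNM minus PO in log2 intensity (x axis) of named transcripts (y axis) in each of the 6 combinations (points; filled for agria, open for organ pipe; shape gives temperature), with the mean of the 6 as a black bar. Of the named genes shown, those higher in OPNM have their largest difference mostly on agria at 35°C (filled triangles). Most of those lower in OPNM have theirs on organ pipe at 25°C (open squares).

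Among the genes higher in OPNM, a pair of odorant-binding proteins stood out. These small secreted proteins carry odorants and other hydrophobic compounds to receptors. *Obp56g* (GI18535) ranged from 10.66 to 11.95 in OPNM (median 11.32) and from 10.18 to 11.35 in PO (median 10.70), a difference of 0.56 ± 0.0886 (1.48-fold, adjusted p = 2.42e-06). *Obp56e* (GI18537) ranged from 11.17 to 12.42 in OPNM (median 11.87) and from 11.15 to 12.05 in PO (median 11.60), a difference of 0.39 ± 0.0705 (adjusted p = 4.38e-05). Both overlapped between populations, and both passed within 1 combination, agria at 35°C. There the *Obp56g* arrays read 11.29, 11.43, 11.36, and 11.74 in OPNM and 10.57, 10.30, 10.18, and 10.44 in PO, without overlap. Without that combination *Obp56e* differed by 0.29 (adjusted p = 0.0102). Of the 7 chemosensory transcripts with a name, these 2 were higher in OPNM and the other 5, among them *CheA7a* at 0.24 (adjusted p = 0.0313) and *Or49a* at -0.03, did not pass. The median of the 7 was 0.11.

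Enzymes of the cytochrome P450 family differed in both directions. *Cyp6a23* (GI18702), a cytochrome P450 of a family known for metabolizing foreign compounds, ranged from 9.15 to 10.50 in OPNM (median 9.96) and from 8.67 to 9.89 in PO (median 9.38), a difference of 0.52 ± 0.0738 (1.43-fold, adjusted p = 2.05e-07). The single glutathione S-transferase with a name, *GstE7* (GI20124), was 10.84 ± 0.61 in OPNM and 10.44 ± 0.33 in PO (difference 0.40 ± 0.0831, adjusted p = 0.000397), with a sign that held in 5 of 6 combinations. Without agria at 35°C it no longer passed (0.30, adjusted p = 0.0257). *Cyp4g15*, of the family that includes the enzyme making cuticular hydrocarbons, was lower in OPNM, at 12.44 ± 0.48, than in PO, at 12.77 ± 0.27 (adjusted p = 0.00846), and lost the call without organ pipe at 25°C (-0.19, adjusted p = 0.269). Of 16 named P450 transcripts, 2 were higher in OPNM, 1 was higher in PO, and 13 did not pass, with a median of 0.01.

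The 59 transcripts listed under heme-binding or P450 terms also had calls in both directions, 5 higher in OPNM and 5 higher in PO. Of all 942 transcripts with an annotation term, 2.34% were higher in OPNM and 10.5% were higher in PO. FBtr0173075, a heme-binding transcript without a gene name, had the largest difference of the 59. It ranged from 8.88 to 10.99 in OPNM (median 10.44) and from 8.13 to 10.29 in PO (median 9.21), a difference of 1.12 ± 0.142 (adjusted p = 6.21e-09), while PP and SQ, at 9.21 ± 0.45 and 9.09 ± 0.74, lay near PO. In the other direction, FBtr0166981 was 9.62 ± 0.56 in OPNM and 10.32 ± 0.36 in PO (-0.70 ± 0.0886).

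The remaining genes of this group had smaller differences. *TpnC41C*, a troponin C that senses calcium in muscle, was 11.53 ± 0.25 in OPNM and 11.28 ± 0.17 in PO (0.25 ± 0.0614, adjusted p = 0.00357). *CG11048* (0.32), *CG42345* (0.30), *CG10307* (0.24), and *CG9760* (0.23) were also higher in OPNM, with adjusted p from 0.00135 to 0.00353. *CG11048* and *CG10307* differed most on agria at 35°C, by 0.83 and 0.70, and by 0.16 to 0.33 and 0.01 to 0.32 elsewhere. Most even of the named genes were *CG42345*, *kto*, a subunit of the Mediator complex in transcription, and *REG*, an activator of the proteasome. *kto* had differences of 0.11 to 0.22 over the 6 combinations and *REG* of 0.06 to 0.16. These differences lay close to the threshold. *CG11048*, *CG42345*, *kto*, and *REG* no longer passed when any of replicates 1 to 4 was left out of every group (adjusted p of 0.0107 to 0.138), and neither did *TpnC41C*, *CG10307*, and *CG9760* without agria at 35°C (0.0144 to 0.132).

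Some genes of bacterial recognition were higher in PO. *PGRP-SA* (GI16473), the receptor that detects peptidoglycan upstream of Toll, ranged from 8.65 to 10.40 in OPNM (median 9.49) and from 9.11 to 11.14 in PO (median 10.22), a difference of -0.71 ± 0.098 (1.64-fold, adjusted p = 8.04e-08). *PGRP-LF* (GI12111), which dampens the Imd pathway, ranged from 8.14 to 9.50 in OPNM (median 8.79) and from 8.55 to 10.46 in PO (median 9.68), a difference of -0.79 ± 0.119 (1.73-fold, adjusted p = 6.89e-07). For *PGRP-SA* on organ pipe at 25°C the arrays read 8.89, 8.65, 9.23, and 9.08 in OPNM and 10.24, 10.15, 10.35, and 11.14 in PO, without overlap, and at 15°C 8.96, 8.96, 8.80, and 8.99 in OPNM and 10.02, 10.07, 9.83, and 9.85 in PO, again without overlap. On agria at 35°C they read 10.17, 10.40, 10.21, and 9.95 in OPNM and 10.43, 10.51, 10.78, and 10.51 in PO, separated by a small gap. *nimB5*, of the Nimrod family of blood cell and fat body proteins, was 6.88 ± 0.46 in OPNM and 7.45 ± 0.52 in PO (-0.56 ± 0.126, adjusted p = 0.0013). Its difference no longer passed without organ pipe at 15 or 25°C (adjusted p = 0.0295 and 0.0243).

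Of the 6 immune transcripts with a name, these 3 were lower in OPNM and the other 3, *PGRP-LA* (-0.26, adjusted p = 0.0516), *nimC3* (-0.24), and the receptor *Tl* (-0.06), did not pass, with a median of -0.41. Among 8 transcripts listed under peptidoglycan terms, *PGRP-SA* and *PGRP-LF* were the 2 that passed, and the other 6 ranged from -0.45 to 0.22. Beside these counts, 5.54% of all 560 named transcripts and 10.5% of all 942 with an annotation term were higher in PO.

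**Figure D4:**
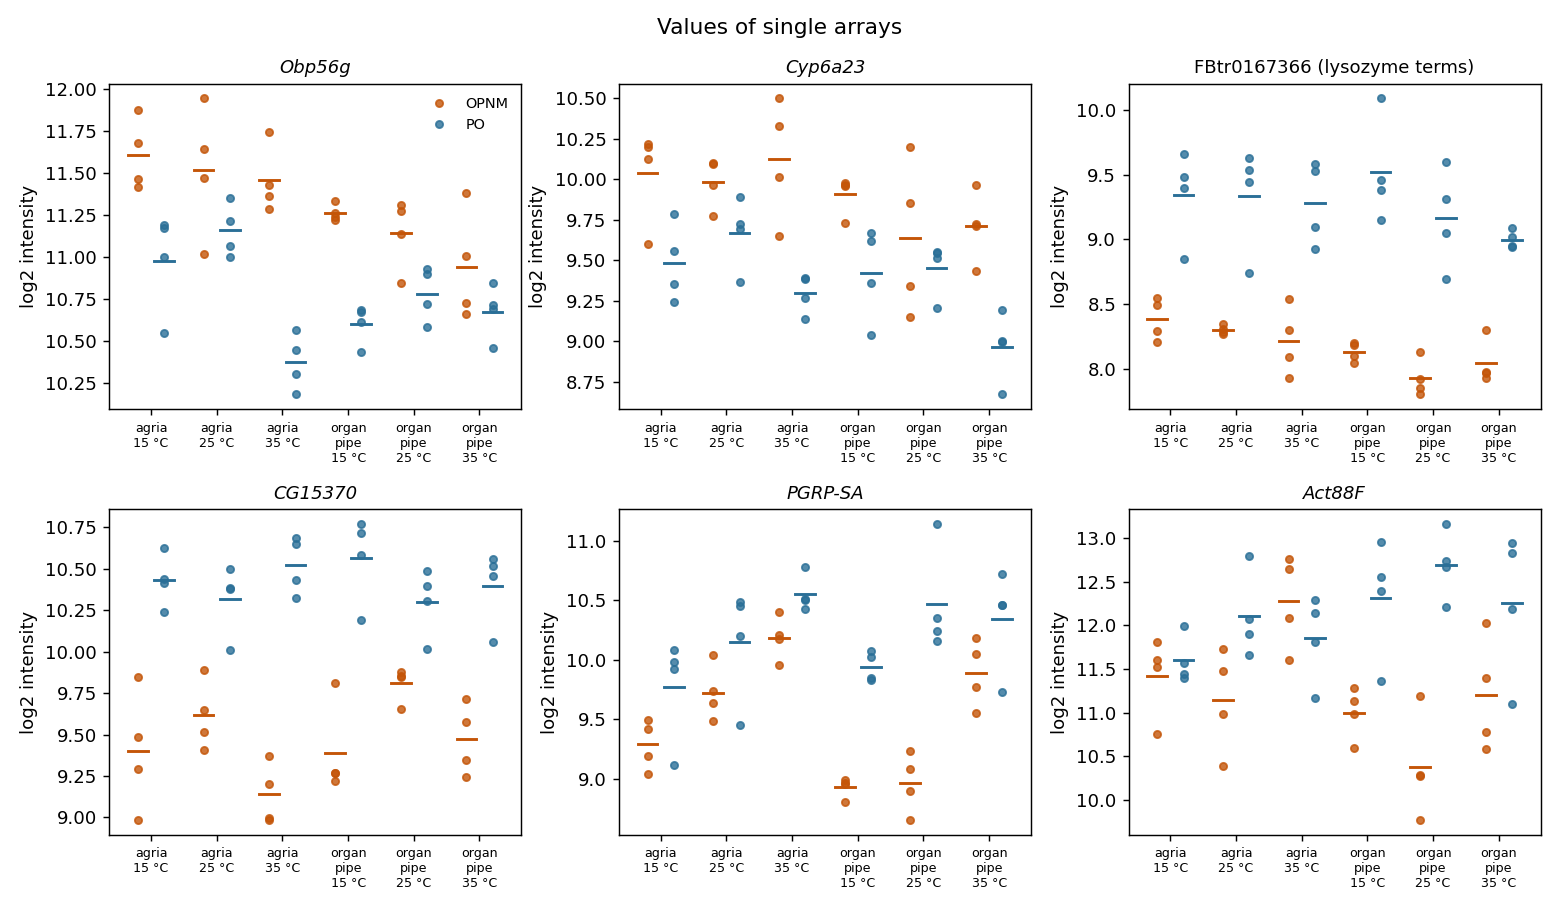
Log2 intensity (y axis) of 6 transcripts in every OPNM and PO array (points; lines are means of 4 arrays) by combination of cactus and temperature (x axis). *CG15370* and FBtr0167366 separate the populations in every combination, *Obp56g* and *Cyp6a23* overlap in some, *PGRP-SA* separates on organ pipe at 15 and 25°C and narrowly on agria at 35°C, and *Act88F* is far lower in OPNM on organ pipe at 25°C but not on agria at 35°C.

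Most digestive and other peptidases did not pass, and those that did were more often higher in PO. *epsilonTry* (GI21243), a trypsin, ranged from 9.30 to 12.16 in OPNM (median 11.10) and from 10.09 to 12.83 in PO (median 11.67), a difference of -0.85 ± 0.134 (1.81-fold, adjusted p = 2.06e-06). *Ance-5* (GI19680), of the family of angiotensin-converting enzymes, ranged from 9.23 to 11.65 in OPNM (median 10.67) and from 10.58 to 12.03 in PO (median 11.45), a difference of -0.76 ± 0.11 (1.69-fold, adjusted p = 3.09e-07). Of 77 transcripts listed under serine peptidase terms, 1 was higher in OPNM, 14 were higher in PO, and 62 did not pass, with a median of -0.18. Of 66 listed under metallopeptidase terms, 1 was higher in OPNM, 14 were higher in PO, and 51 did not pass, with a median of -0.17. Of all 942 transcripts with an annotation term, 2.34% were higher in OPNM and 10.5% were higher in PO.

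The largest metallopeptidase difference was that of FBtr0165980, listed as a metallocarboxypeptidase, which ranged from 8.94 to 11.60 in OPNM (median 10.56) and from 10.81 to 12.65 in PO (median 11.64). Its difference was -1.13 ± 0.0986 (2.20-fold, adjusted p = 2.93e-15), and it passed within all 3 organ pipe combinations and within none of the agria combinations (heterogeneity, adjusted p = 0.00352). Of 43 peptidase inhibitors, which block such enzymes, 7 (16.3%) were higher in PO, 0 in OPNM, and 36 did not pass. The share higher in PO was 10.5% over all 942 transcripts with a term.

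Of 19 transcripts listed under chitin terms, 5 (26.3%) were higher in PO, against 10.5% of all 942 transcripts with a term. Of the 19, 0 were higher in OPNM and 14 did not pass, with a median of -0.15. FBtr0167983, listed as a chitinase, an enzyme that breaks down chitin, ranged from 10.04 to 11.70 in OPNM (median 11.06) and from 11.29 to 12.53 in PO (median 12.10), a difference of -0.88 ± 0.0948 (1.85-fold, adjusted p = 1.94e-11). FBtr0167985, also listed as a chitinase, was 11.52 ± 0.36 in OPNM and 12.24 ± 0.31 in PO (-0.72 ± 0.0783), and FBtr0165695, listed as a chitin-binding protein of the peritrophin A kind, was 9.31 ± 0.21 in OPNM and 9.79 ± 0.25 in PO (-0.48 ± 0.0595). Among 3 named cuticle protein genes, *Cpr49Ac* fell to 8.83 ± 0.27 in OPNM, against 9.32 ± 0.43 in PO, and the others did not pass.

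These counts have to be read against the annotation. Terms came from the study's tables of gene clusters and were known for 942 transcripts. The clusters were built on these same arrays, so that the lists are not independent evidence of their direction. Of the 942, 12.8% passed, 2.34% higher in OPNM and 10.5% higher in PO, with a median of -0.04. Against that, 19.5% of the serine peptidases and 22.7% of the metallopeptidases passed, as did 16.3% of the peptidase inhibitors, 26.3% of the 19 chitin transcripts, and 16.9% of those under heme-binding or P450 terms. In 51 transcripts under oxidative phosphorylation terms and 16 under DNA repair and replication terms, 0 passed in limma and 0 with ordinary contrasts, 4 and 2 had an unadjusted p under 0.05, and their medians were 0.00 and 0.01. The heat shock cognates *Hsc70-1* (-0.21), *Hsc70-3* (-0.15), and *Hsc70-4* (0.01), chaperones for protein folding, did not pass either.

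Other genes higher in PO were *nAcRbeta-21C*, a subunit of the nicotinic acetylcholine receptor, at 10.03 ± 0.38 in OPNM and 10.61 ± 0.43 in PO (-0.58 ± 0.107, adjusted p = 6.95e-05), and *CG11425*, at 9.19 ± 0.33 in OPNM and 9.92 ± 0.46 in PO (-0.73 ± 0.11, adjusted p = 8.5e-07). *CG11425* was among the even ones, with differences of -0.48 to -1.13. Also among the 31, and named after their values were seen, were the lipophorin receptor *LpR1* (-0.33), the perilipin *Lsd-1* (-0.33), and *NPC1b* (-0.47), which takes up sterol in the gut. Each of these 3 kept its sign in 5 of 6 combinations and passed within 1 of them. Other genes of lipid metabolism were not counted.

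Whether the difference itself varied over the 6 combinations was tested with a moderated F test. Heterogeneity passed for 150 transcripts (1.03%), of which 55 were among the 566 and 95 were not. In 136 of the 150 the largest difference lay on organ pipe at 25°C, as it did in 34.4% of all transcripts. In 135 of the 136 the transcript was lower in OPNM. In 9 others it lay on agria at 35°C. A change of the population difference between cacti passed for 46 transcripts (0.317%) and between temperatures for 8 (0.0551%). The count of 150 depended on single arrays. It became 14 and 28 without replicates 2 and 1 of OPNM on organ pipe at 25°C, 4 without both, and 530 without replicate 3 of the same group. It became 30, 86, and 99 without replicates 4, 1, and 2 of PO on organ pipe at 25°C, 58 and 70 without replicates 4 and 3 of OPNM on agria at 35°C, 83 and 97 without replicates 3 and 1 of PO on agria at 35°C, and 509 without replicate 2 of OPNM on agria at 15°C.

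The flight muscle actin *Act88F* (GI23222) was the named gene with the widest range. On organ pipe at 25°C its arrays read 10.27, 9.77, 11.19, and 10.29 in OPNM and 12.73, 13.16, 12.67, and 12.21 in PO, a difference of -2.31 with no overlap. On agria at 35°C they read 11.60, 12.65, 12.76, and 12.08 in OPNM and 11.17, 11.81, 12.14, and 12.29 in PO, a difference of 0.42 with overlap. Over all combinations the difference was -0.90 ± 0.136 (1.87-fold, adjusted p = 8.48e-07; heterogeneity, adjusted p = 0.00183).

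In other muscle genes the differences were small or changed sign. *sls*, the titin-like protein of the sarcomere, differed by 0.80 on agria at 35°C, where the arrays read 12.17, 12.53, 12.62, and 12.58 in OPNM and 11.69, 11.62, 11.71, and 11.67 in PO, and by -0.45 on organ pipe at 25°C, where they read 11.94, 11.42, 12.34, and 11.91 in OPNM and 12.42, 12.63, 11.99, and 12.35 in PO (heterogeneity, adjusted p = 0.00206). Of the 7 named muscle transcripts *TpnC41C* was higher in OPNM, *Act88F* was higher in PO, and 5 did not pass.

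Of the same kind were *fusl*, a presynaptic protein, with 0.69 on agria at 35°C and -0.68 on organ pipe at 25°C (heterogeneity, adjusted p = 0.00206), and *NAAT1*, a nutrient amino acid transporter, with 0.42 and -0.92 there (adjusted p = 0.0018). For *fusl* the difference over all 6 combinations was -0.00 ± 0.0669, and it was past the threshold in opposite directions within these combinations. In all, 10 transcripts passed in opposite directions in different combinations.

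Cactus was also compared within each population, since the difference was larger on organ pipe. Over all transcripts in OPNM, 1082 (7.45%) were higher on agria and 344 were higher on organ pipe. In PO, 1 (0.00688%) was higher on agria and 15 were higher on organ pipe at the same threshold. The OPNM counts include replicates 1 and 2 on organ pipe at 25°C. These cactus counts were not repeated without those arrays or under another scaling. Counts past a threshold in each population do not test whether the populations differ in their response to cactus. The direct test of that, given above, passed for 46 transcripts (0.317%). Over the 378 transcripts higher in PO, the 12 OPNM arrays on agria averaged 10.18 ± 0.21 and the 12 on organ pipe 9.84 ± 0.26, and the PO arrays averaged 10.44 ± 0.19 on agria and 10.52 ± 0.21 on organ pipe. In these averages the 2 populations were closer to each other on agria than on organ pipe. Not every temperature followed this. On agria at 25°C OPNM averaged 10.07 and PO 10.50, and on organ pipe at 35°C OPNM averaged 9.90 and PO 10.31.

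The Baja California arrays entered the choice of these 378 transcripts through the shared estimate of the error and the joint adjustment. Adjusting within the comparison alone gave 382. In PP they averaged 10.33 ± 0.14 on agria (n = 13) and 10.03 ± 0.16 on organ pipe (n = 12), and in SQ 10.39 ± 0.15 and 10.19 ± 0.18 (n = 12 each). Of the 378, 343 (90.7%) had a higher mean on agria in PP and 351 (92.9%) in SQ, against 45.1% and 48.8% of all transcripts. In PP 85 of them (22.5%) passed the threshold as higher on agria, against 4.84% of all transcripts, and in SQ 8 (2.12%), against 0.317%. The corresponding share with a higher mean on agria was 91.0% in OPNM and 32.0% in PO, on the arrays used for the choice. The 188 transcripts higher in OPNM gave 55.3% in PP and 54.8% in SQ.

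**Figure D5:**
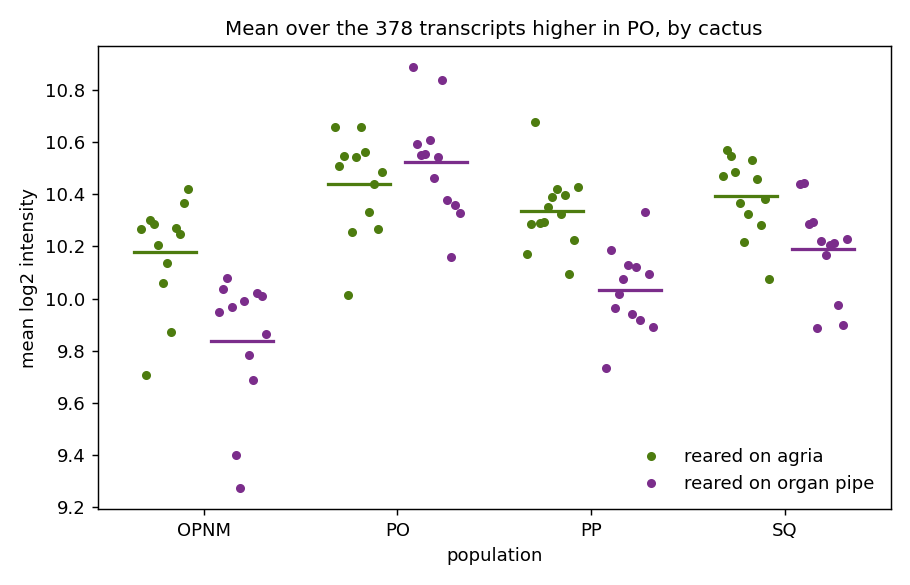
Mean log2 intensity over the 378 transcripts higher in PO, per array (points; lines are means), by population (x axis) and rearing cactus (color). The mean level on organ pipe lies below that on agria in OPNM, PP, and SQ, whereas in PO the means are 10.44 on agria and 10.52 on organ pipe.

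The like comparison within Baja California, PP against SQ, shares no array with OPNM against PO. Both comparisons did share the estimate of the error and the joint adjustment, so that their calls are not independent. PP against SQ gave 158 transcripts (1.09%), of which 31 were also among the 566, that is 5.48% of the 566 and 19.6% of the 158. Of these 31, 17 were higher in OPNM and 14 higher in PO. All 14 that were higher in PO were higher in SQ, and of the 17 higher in OPNM 13 were higher in PP and 4 were higher in SQ. The genes below are named for this overlap, after their values were seen.

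Both odorant-binding proteins were higher in PP, *Obp56g* at 11.16 ± 0.50 in PP and 10.77 ± 0.44 in SQ (difference 0.41, adjusted p = 0.000675) and *Obp56e* at 11.99 ± 0.35 in PP and 11.67 ± 0.31 in SQ (0.33, adjusted p = 0.000685). *TpnC41C* (0.31), *CG42345* (0.31), and *CG11048* (0.31) were higher in PP as well. Of the genes higher in PO, *nimB5* (-0.54), *nAcRbeta-21C* (-0.45), and *Ance-5* (-0.47) were lower in PP than in SQ. The P450 and glutathione S-transferase genes in this overlap did not all go the same way. *Cyp301a1*, a P450, was higher in OPNM (0.19, adjusted p = 0.00803) and in PP, at 10.59 ± 0.18 in PP and 10.26 ± 0.18 in SQ (0.33, adjusted p = 5.41e-07). *Cyp6a23* was higher in OPNM but lower in PP, at 9.27 ± 0.30 in PP and 9.55 ± 0.31 in SQ (-0.29, adjusted p = 0.00637), and so was *GstE7*, at 10.37 ± 0.39 in PP and 10.81 ± 0.42 in SQ (-0.43, adjusted p = 0.000106).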

How the data were processed

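RNA of each pooled sample of females had been labelled with Cy3 and hybridized to 1-color oligonucleotide arrays. The deposited values are log2 intensities per transcript, which the authors had quantile normalized and summarized over probes by robust multiarray averaging (RMA). They were used as deposited. The arrays had been designed on version 1.3 of the *D. mojavensis* genome, and no coordinates were used. A linear model with 1 mean for each of the 24 groups was fitted to all 97 arrays (limma 3.58.1, R 4.3.3, 73 residual degrees of freedom), so that all groups shared 1 error per transcript. OPNM minus PO was the mean of 6 equally weighted differences, with Benjamini-Hochberg adjustment over 483 comparisons and 14528 transcripts together. Heterogeneity, and the interactions with cactus and temperature, were moderated F tests adjusted over transcripts. The script was checked on simulated data.

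Named transcripts were, among those that passed, the 8 largest named differences in each direction with the same sign in 6 of 6 combinations, the 2 largest of any kind, the 2 largest of each gene list, the 4 named ones with the smallest heterogeneity p, and the 3 most even. Transcripts, lists, and comparison were chosen with earlier results of these data known, and the lists by annotation term were added after the values had been seen. Names and terms came from supplementary tables that pair transcripts with genes, 560 with an ortholog and 942 with a term. Alternatives changed the moderation, adjustment, arrays in the fit, normalization, array spread, filter on dim transcripts, replicate block, replicates, and combinations averaged. Single arrays, arrays of residual SD over 0.3, the averaging of both arrays labelled replicate 3, and the settings for single combinations were added after seeing the data.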

Additional observations from a re-analysis of the deposited data

Results flagged for a closer look

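Single arrays stood apart from the other 3 of their group in 18 of 192 checks with Dixon's test (9.38%), run on 4 array measures and 12 transcripts, where chance gives about 1 in 20. In OPNM, replicate 2 on agria at 15°C was low for the mean of the 378 transcripts higher in PO (9.71) and for FBtr0167365 (8.85), and replicate 1 on agria at 25°C was low for FBtr0174835 (6.28). *CG15370* was high in OPNM replicate 2 on organ pipe at 15°C (9.81) and low in replicate 3 at 25°C (9.65). FBtr0168223 was low in OPNM replicate 4 on organ pipe at 25°C (7.36), and FBtr0167366 was high in replicate 4 at 35°C (8.30).

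In PO, FBtr0172076 was high in replicate 4 on agria at 15°C (10.69) and FBtr0172428 low in replicate 4 on agria at 25°C (10.42). The interquartile range of replicate 3 on agria at 35°C was 2.79, below the other 3. On organ pipe at 15°C, replicate 1 was high for the mean of the 378 transcripts (10.89) and for FBtr0167365 (11.57), and replicate 3 was high for the mean of the 188 transcripts higher in OPNM (10.01) and low for FBtr0166511 (5.09). On organ pipe at 25°C, replicate 2 was high for FBtr0168223 (6.50) and low for FBtr0172428 (12.52). At 35°C *sls* was high in replicate 4 (12.56) and *fusl* low in replicate 3 (10.50).

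Among the transcripts described above, OPNM minus PO differed over the 6 combinations for *NAAT1* (adjusted p = 0.0018), *Act88F* (0.00183), *sls* (0.00206), *fusl* (0.00206), FBtr0165980 (0.00352), FBtr0175250 (0.00465), FBtr0166981 (0.00474), and FBtr0172428 (0.00979), by moderated F tests in limma adjusted over all transcripts. FBtr0175250, listed under extracellular terms, differed by -1.58 on organ pipe at 25°C and by 0.01 on agria at 35°C.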

How the results depend on the processing

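Of 831 values of the 44 named transcripts under 19 alternatives, 749 kept direction and side of the threshold, 80 lost and 2 gained a call, and 0 reversed. Of the 41 called, 25 kept the call throughout. With a covariate for the interquartile range of the array, the counts were 965 (456 higher in OPNM, 509 or 52.7% higher in PO, against 66.8%), 284 for heterogeneity, 113 for the interaction with cactus, 28 for that with temperature, 1178 on organ pipe at 25°C, and 379 on agria at 35°C. Without organ pipe at 25°C the count was 317, of which 275 were among the 566, with 160 higher in PO (50.5%). Without agria at 35°C, 571 were higher in PO and 150 reached 1.5-fold. With the 48 mainland arrays alone, the counts were 75 for heterogeneity, 18 for cactus, and 256 on agria at 35°C. Centering each array on its median gave 52 for heterogeneity and 4 for temperature, a repeated quantile normalization and ordinary contrasts gave 4 for temperature, and leaving out the dimmest 25% gave 71 for cactus and 17 for temperature. Adjusting within the comparison gave 14 on agria at 35°C.

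Leaving 1 replicate number out of every group gave 244 (without replicate 1) to 458 calls, 65 to 117 higher in OPNM and 179 to 379 higher in PO, 2 to 128 for heterogeneity, 0 to 75 for cactus, 2 to 5 for temperature, 243 to 828 on organ pipe at 25°C, and 16 to 74 on agria at 35°C. Leaving out single arrays gave 497 to 678 calls, 162 to 206 higher in OPNM and 323 to 472 higher in PO, 14 to 530 for heterogeneity, 327 to 1068 on organ pipe at 25°C, and 47 to 215 on agria at 35°C. Without the 6 arrays of residual SD over 0.3 (1 of OPNM, 5 of PO), the counts were 418 with 115 higher in OPNM, 82 for heterogeneity, 7 for cactus, 13 for temperature, and 75 on agria at 35°C. Without OPNM replicates 1 and 2 on organ pipe at 25°C, they were 4 for heterogeneity and 87 in that combination. The causes were not tested.

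Replicate numbers did not pair the samples. Of 24 same-numbered pairs 7 correlated above 0.1 (median -0.07), and 13 of 48 arrays correlated best with their own number. With a replicate block, 565 transcripts were called, and 4 for the interaction with temperature. The 4 arrays per group limit single combinations, and dim transcripts have the least signal over background.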

Other observations

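The mainland populations did not lie to one side of Baja California in a single way. Of the 188 transcripts higher in OPNM, 95 had both Baja California means between those of OPNM and PO, 21 had both below, and 13 had both above. Of the 378 transcripts higher in PO, 231 had both between, 30 had both below, and 35 had both above. The Baja California mean was nearer to OPNM for 85 of the 188 and for 199 of the 378. These are counts of means, with no test.

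*RpI1*, the large subunit of RNA polymerase I, which makes ribosomal RNA, was 12.76 ± 0.14 in OPNM and 12.55 ± 0.19 in PO (0.21 ± 0.0449, adjusted p = 0.000707 in limma), with the same sign in 6 of 6 combinations. Of 27 transcripts under terms of tRNA metabolism, 2 were higher in OPNM and 1 higher in PO (11.1%, against 12.8% of all transcripts with a term). That one, FBtr0167957, listed as a tRNA ligase, was 12.58 ± 0.17 in OPNM and 13.11 ± 0.38 in PO (-0.53 ± 0.0557), passed on organ pipe at 15 and 25°C, and had the larger spread in PO. These genes are given after their values were seen.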
